A study of Homo sapiens with 6 samples.

Results

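The S100 and annexin genes encode calcium-binding proteins, and 31 of them were measured among 19775 genes in SKOV-3 and Caov-3, a pair of established human ovarian cancer lines. Members were all genes whose array symbol is S100 followed by A and a number, by B, G, P or Z, or ANXA followed by a number, which gave 20 S100 genes and 11 annexin genes. Each line had 3 arrays (Affymetrix U133 Plus 2.0): one of untreated cells, one after 1 h of interleukin-6 (IL-6, 30 ng/ml), and one where 4 h of the anti-IL-6 antibody siltuximab (CNTO328) came before that IL-6. RNA of 3 flasks was pooled for each array, so every group had 1 array and no replicate. Antibody alone was not analysed here. Fits of line and treatment gave the p-values below, so the mean shift of each treatment is not part of their error. What remains in the residuals is array noise and any response that was unlike in SKOV-3 and Caov-3. Without replicates these cannot be told apart.

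S100 proteins are small and carry a pair of EF-hand calcium-binding loops, and they work as dimers that bind a target protein once calcium rises. Annexins bind acidic membrane lipids in the presence of calcium, and several do so with an S100 partner, as ANXA2 with S100A10 and ANXA1 with S100A11. In carcinomas S100A4 and ANXA1 are known for their link to cell motility, and S100A8 with S100A9 forms calprotectin, an inflammatory protein whose genes can be induced through STAT3, the factor that IL-6 activates.

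The deposited values were array-scaled intensities, and each gene stood on the probe set with the highest mean over the 6 arrays. The median of named probe sets was 102.1 to 121.8 per array, and a gene entered the fits if at least 2 arrays were at or above their median. Of the 31 members 22 entered, 12 S100 genes and 10 annexins, and 9 did not. Both S100A4 and ANXA1 were above the median on all 6 arrays. The Caov-3 IL-6 array stood apart in 1 check of RNA quality. Its ratio of the ACTB signal at the start of the transcript to that at the end was 0.494, against 0.643 to 0.767 on the other 5 arrays. Of 7 fitted epithelial markers 5 were called, all higher in Caov-3, against 70.8% of all genes called and 38.6% called higher. On the log2 scale KRT19 was higher by 7.80, CDH1 by 7.17, MUC16 by 5.17, EPCAM by 3.54 and PAX8 by 0.79. KRT19, CDH1 and MUC16 were below the median on every SKOV-3 array. They entered the fit through Caov-3 alone, so the filter itself favoured a difference. The keratins KRT8 and KRT18 did not pass the test of the line difference (adjusted p = 0.588 and 0.325, limma). CDH1, which encodes E-cadherin, was at 4763 to 5094 in Caov-3 and at most at 27.5 in SKOV-3.

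**Figure D1:**
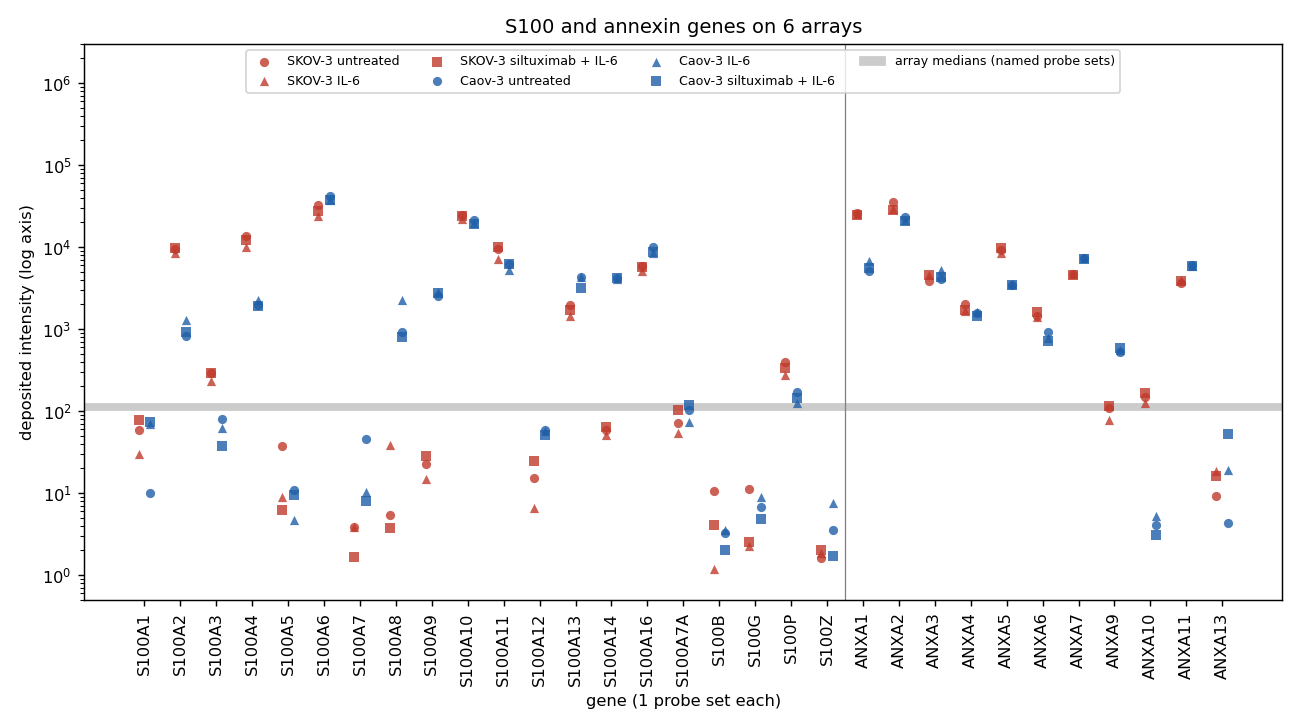
Deposited intensity (log axis) of the 31 S100 and annexin genes, with red for SKOV-3, blue for Caov-3 and the symbol for the treatment. The grey band spans the 6 array medians of 102.1 to 121.8, and S100B, S100G and S100Z, at 1.17 to 11.2, lie far below it.

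The lines differed in nearly every member that entered the fits, and in bulk RNA fewer cells of a type and less RNA per cell cannot be told apart. In limma's fit of line and treatment to all 6 arrays, 20 of the 22 members were called, 9 higher in Caov-3 and 11 lower, at a Benjamini-Hochberg adjusted p under 0.05 over 12290 genes. Among all genes 70.8% were called, 38.6% higher and 32.3% lower. S100A3, S100A8, S100A9, S100A14 and ANXA10 reached the median in 1 line alone, so the filter itself favoured a difference. Of the other 17 members 15 were called. Among genes that reached the median in both lines, on at least 1 array of each, 68.1% were called. Called differences of at least 4-fold were found for 8 members and for 12.7% of all genes. Without the 5 members seen in 1 line alone, 4 of 17 had such a difference, S100A2, S100A4, ANXA1 and ANXA9. The share was 6.24% of genes that reached the median in both lines. ANXA9 reached it in SKOV-3 on the siltuximab array alone, at 115.4 against a median of 103.1. The arrays of the lines did not overlap for 21 of the 22 members, against 74.1% of all genes, and for 16 of the 17, against 71.5%. The median size of the line difference was 1.15 on the log2 scale for the 22 members and 0.68 for all genes. For the 17 members it was 0.69, beside 0.59 for genes that reached the median in both lines.

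The calprotectin genes were among the members high in Caov-3. In Caov-3 S100A9 was at 2538 on the untreated array, 2837 on the IL-6 array and 2717 on the siltuximab array, and the SKOV-3 values in that order were 22.3, 14.6 and 28.3. Values of 3 arrays are given in this order throughout. S100A8, its partner, was at 917, 2254 and 793 in Caov-3, against 5.37, 38.4 and 3.72 in SKOV-3. For both genes every Caov-3 array was above every SKOV-3 array, and the SKOV-3 arrays lay below their medians. S100A9 was higher in Caov-3 by a log2 difference of 6.14 (SE 0.174, adjusted p = 5.565e-07, limma). That of S100A8 was 5.34 (SE 0.187, adjusted p = 1.074e-06, limma). The size rests on dim SKOV-3 values, and with a pseudocount of the median in place of 17.06 it was 4.40 for S100A9 and 3.37 for S100A8.

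S100A12, the third gene of this neutrophil group, was at 51.6 to 59.4 in Caov-3 and 6.49 to 24.2 in SKOV-3, below the median on all 6 arrays. Because these genes are abundant in leukocytes, markers of blood cells were read beside them, all of leukocytes except the red-cell gene HBB. Of 11 markers measured, 1 to 5 were at or above the array median on the 6 arrays, and the summed intensity of the list was 599.5 to 1152.8 in SKOV-3 and 1639.3 to 1686 in Caov-3. CD14, at 573 to 667 there, and the integrin subunit ITGB2, at 405 to 433, were called higher in Caov-3. They were 2 of 5 fitted markers, HBB being one of the 5, where 70.8% of all genes were called. ITGB2 was at 11.7 to 29.2 in SKOV-3, below the median on every array, so the filter itself favoured a difference. The part of leukocyte RNA in the S100A8 and S100A9 values was not tested. PTPRC, which defines leukocytes, was at 25.1 to 35.1 in Caov-3, and the neutrophil and monocyte gene LYZ at 13.4 to 37.9, all below the median. CD3E, FCGR3B and LCP1 were also below it on every Caov-3 array. CD79A, at 149 to 201, was above it on all 3. In Caov-3 CSF3R, at 128, and ITGAM, at 110.5, were above it on the IL-6 array alone. HBB, at 186, was above it on the siltuximab array alone.

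S100A14 also separated the lines widely. This epithelial S100 protein was at 4221, 4083 and 4197 in Caov-3, against 58.7, 50.9 and 63.1 in SKOV-3. The 3 arrays of a line were close together and the lines far apart, with a log2 difference of 5.81 (SE 0.121, adjusted p = 2.135e-07, limma). The SKOV-3 arrays were below their medians, and S100A14 was at 4.67 with a pseudocount of the median. S100A13, which takes part in the release of FGF1, was at 4277, 4299 and 3200 in Caov-3, against 1967, 1429 and 1726 in SKOV-3, a log2 difference of 1.19 (SE 0.134). S100A16 was at 9879, 8460 and 8597 in Caov-3, against 5946, 5066 and 5679, a log2 difference of 0.69. S100A6, calcyclin, was at 42392, 37963 and 37373 in Caov-3, against 32786, 24187 and 27414, a log2 difference of 0.49 (adjusted p = 7.237e-04, limma), and S100A13, S100A16 and S100A6 all passed this test. Averaging its 2 probe sets, S100A6 did not pass (adjusted p = 0.071).

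Genes of the same family went the other way just as clearly. S100A4, known for binding non-muscle myosin and for its link to metastasis, was at 13465, 9996 and 12295 in SKOV-3, against 1964, 2256 and 1883 in Caov-3. The lowest SKOV-3 array was far above the highest Caov-3 array, and S100A4 was lower in Caov-3 by a log2 difference of -2.53 (SE 0.127, adjusted p = 4.627e-06, limma). S100A2, which binds p53, was at 9578, 8442 and 9606 in SKOV-3, against 823, 1288 and 925 in Caov-3, a log2 difference of -3.19 (SE 0.154, adjusted p = 3.991e-06, limma). S100A3 was at 294, 230 and 292 in SKOV-3, against 80.4, 61.8 and 37.6 in Caov-3, all below the median, a log2 difference of -1.94 (SE 0.260), or -1.17 with a pseudocount of the median. S100P, a secreted ligand of the receptor AGER encoded apart from the cluster, was at 395, 272 and 331 in SKOV-3, against 168, 124 and 145 in Caov-3, a log2 difference of -1.10 (SE 0.168). Both S100A3 and S100P passed the test, with no overlap between the lines.

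Of the S100 genes 16 lie on chromosome 1, and in the RefSeq order of genes the called members fell in runs of 1 direction. Whether such runs are unusual was not tested, and S100A9, S100A8, S100A3 and S100A14 reached the median in 1 line alone. From S100A9 onward 14 of them follow each other with no other protein-coding gene between. S100A9 and S100A8 were higher in Caov-3, as was S100A6, which lies between S100A8 and S100A4. Further along S100A4, S100A3 and S100A2, which are direct neighbours, were all lower in Caov-3, and the next 3 genes, S100A16, S100A14 and S100A13, were all higher. S100A12, S100A7A, S100A7, S100A5 and S100A1, which lie between or beside these runs, were below the median on every array. S100A10 and S100A11 lie apart from the others, with 47 protein-coding genes before S100A9.

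**Figure D2:**
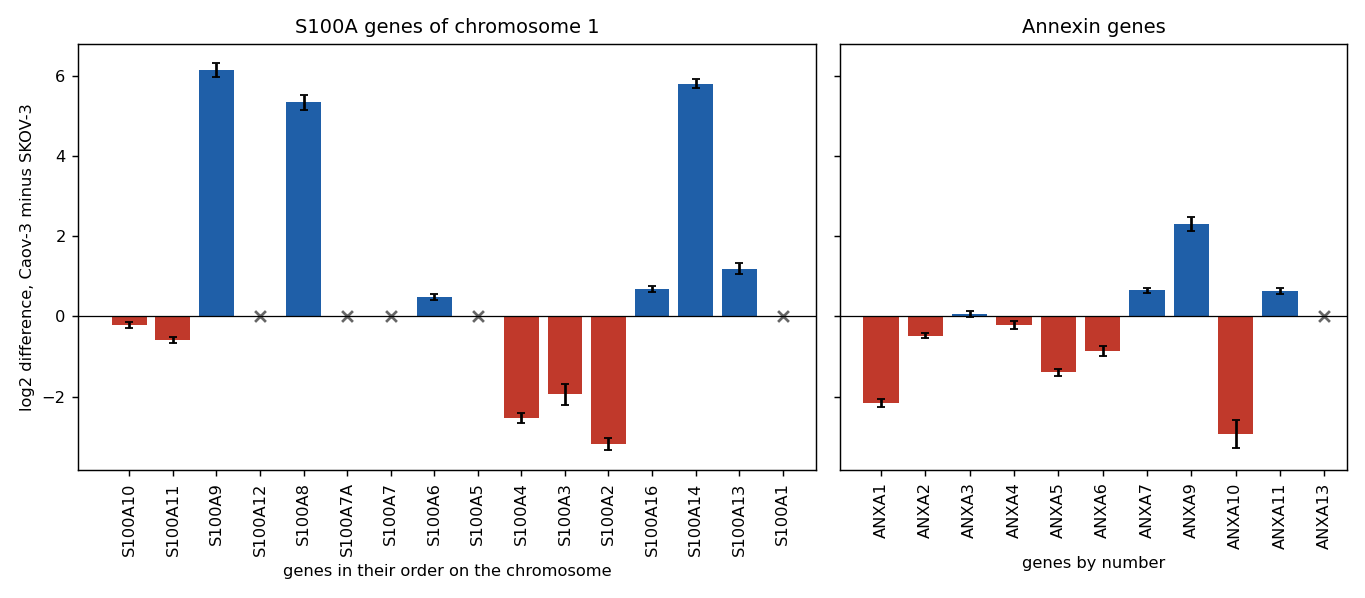
Log2 difference of Caov-3 minus SKOV-3 for the S100A genes in their order on chromosome 1 (left) and for the annexins (right), with bars for the limma estimate over 3 arrays of each line and whiskers for its SE. Crosses mark genes left out of the fit for low values. The run S100A4, S100A3 and S100A2 lies below 0, from -1.94 to -3.19, beside S100A16, S100A14 and S100A13 at 0.69 to 5.81.

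The promoters of the 5 genes with the largest S100 line differences are shown because S100A8 and S100A9 share a high level in Caov-3 but, as described below, differed in their IL-6 folds. Each sequence is the 250 bases before a RefSeq start (GRCh38.p14), 5′ to 3′ on the gene's strand. Capitals mark TATAAA, the core of a TATA box, or TGANTCA, the AP-1 motif. S100A8 is chr1:153391074-153391323 (minus strand, 1 of 3 starts listed), S100A9 is chr1:153357604-153357853 (plus strand) and S100A14 is chr1:153616326-153616575 (minus strand). S100A4 is chr1:153545807-153546056 (minus strand) and S100A2 is chr1:153565845-153566094 (minus strand, 1 of 2 starts).
S100A8: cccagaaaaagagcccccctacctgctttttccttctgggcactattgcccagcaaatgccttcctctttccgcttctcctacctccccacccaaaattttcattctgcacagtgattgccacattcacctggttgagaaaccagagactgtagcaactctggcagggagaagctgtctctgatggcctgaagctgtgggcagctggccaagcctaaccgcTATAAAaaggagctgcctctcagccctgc
S100A9: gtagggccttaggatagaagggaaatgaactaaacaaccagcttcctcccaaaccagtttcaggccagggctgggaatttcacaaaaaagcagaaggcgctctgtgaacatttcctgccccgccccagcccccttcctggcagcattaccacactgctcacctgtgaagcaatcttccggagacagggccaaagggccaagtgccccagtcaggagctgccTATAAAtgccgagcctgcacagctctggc
S100A14: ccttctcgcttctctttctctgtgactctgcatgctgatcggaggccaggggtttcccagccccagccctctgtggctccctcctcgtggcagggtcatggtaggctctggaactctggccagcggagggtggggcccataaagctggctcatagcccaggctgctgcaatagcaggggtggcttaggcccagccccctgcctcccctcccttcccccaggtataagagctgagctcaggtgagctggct
S100A4: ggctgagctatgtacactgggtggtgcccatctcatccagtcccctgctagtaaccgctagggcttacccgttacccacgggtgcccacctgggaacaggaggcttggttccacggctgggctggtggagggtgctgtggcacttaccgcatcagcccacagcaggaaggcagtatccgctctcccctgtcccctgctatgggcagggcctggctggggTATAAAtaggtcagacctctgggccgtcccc
S100A2: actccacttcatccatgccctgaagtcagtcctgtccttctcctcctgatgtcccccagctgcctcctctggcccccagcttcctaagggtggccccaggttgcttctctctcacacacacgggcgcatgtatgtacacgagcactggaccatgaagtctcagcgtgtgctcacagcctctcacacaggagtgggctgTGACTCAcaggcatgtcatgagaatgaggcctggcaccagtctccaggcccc

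Searched on both strands, TATAAA was present 24 to 29 bases before the start of both S100A8 and S100A9 and 26 to 31 bases before that of S100A4. Of the 29 member genes with a promoter in the table, 14 held TATAAA in a window, or 15 of 40 windows (37.5%), and the share among all 35116 windows was 10.7%. The STAT motif TTCNNNGAA was in none of the windows of S100A8 and S100A9. It was in 3 of the 40 member windows (7.5%), those of S100A3, S100A5 and S100Z, and in 6.57% of all windows. TGANTCA was in 5 of the member windows (12.5%), that of S100A2 among them as TGACTCA, and in 6.57% of all windows. The C/EBP motif TTGCNNAA was in 4 of the member windows (10%), that of ANXA1 among them, and in 9.05% of all windows. Some windows of 1 gene overlap, and a match in these letters is a description of the sequence only.

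ANXA1 and ANXA2 were lower in Caov-3, each with an S100 partner gene that was lower there too. ANXA1, which restrains inflammation and binds S100A11, was at 26373, 25316 and 24931 in SKOV-3, against 5033, 6681 and 5505 in Caov-3. The lines were far apart, with a log2 difference of -2.16 (SE 0.0951, adjusted p = 2.775e-06, limma). Its partner gene S100A11 was at 9574, 7194 and 10073 in SKOV-3, against 6202, 5314 and 6256 in Caov-3, a log2 difference of -0.58 (SE 0.0766, adjusted p = 4.048e-04, limma).

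ANXA2, which with S100A10 forms a heterotetramer that binds plasminogen at the cell surface, differed less between the lines. It was at 35126, 29026 and 28263 in SKOV-3, against 23263, 21507 and 20899 in Caov-3, a log2 difference of -0.49 (SE 0.0644, adjusted p = 4.130e-04, limma). Its 3 bright probe sets, at -0.49 to -0.55, all carry the suffix _x_at, which marks possible cross-hybridization. S100A10 was at 24510, 21777 and 23740 in SKOV-3, against 21638, 19459 and 19253 in Caov-3. Its arrays did not overlap between lines, though by a small step, and the log2 difference was -0.21 (SE 0.0630, adjusted p = 0.01832, limma). The call was lost without either untreated array (-0.23, adjusted p = 0.0598) and without the SKOV-3 or the Caov-3 siltuximab array (-0.17, adjusted p = 0.147 and 0.153). It was also lost with no filter on low values (adjusted p = 0.0508) and without a trended prior (adjusted p = 0.106), with the size unchanged.

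Among the other annexins ANXA5, the phosphatidylserine binder used to stain dying cells, was at 9299, 8476 and 9820 in SKOV-3, against 3439, 3539 and 3436 in Caov-3, a log2 difference of -1.40 (SE 0.0784). ANXA6, the annexin with a doubled core, was at 1431, 1398 and 1624 in SKOV-3, against 928, 773 and 716, a log2 difference of -0.87 (SE 0.127). ANXA10 was at 149, 126 and 164 in SKOV-3, against 4.07, 5.26 and 3.04 in Caov-3, a log2 difference of -2.94 (SE 0.353). All of these were called lower in Caov-3. ANXA10 had 1 probe set, near the median in SKOV-3, and its log2 difference was -1.16 with a pseudocount of the median.

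ANXA9, ANXA7 and ANXA11 were called higher in Caov-3. ANXA9, an annexin with altered calcium-binding sites, was at 531, 560 and 584 in Caov-3, against 107.9, 77.2 and 115.4 in SKOV-3, a log2 difference of 2.31 (SE 0.181, adjusted p = 3.152e-05, limma), or 1.67 with a pseudocount of the median. ANXA7, which takes part in membrane fusion, was at 7247, 7262 and 7230 in Caov-3, against 4624, 4697 and 4514. ANXA11, which tethers RNA granules to lysosomes, was at 5971, 5908 and 5950 in Caov-3, against 3667, 4003 and 3880. Their log2 differences were 0.65 (SE 0.0674) and 0.63 (SE 0.0723). ANXA3 and ANXA4 did not pass the test. ANXA3 was at 3895, 4610 and 4580 in SKOV-3, against 4076, 5285 and 4349 in Caov-3. It had a log2 difference of 0.06 (SE 0.0814, adjusted p = 0.516, limma) and was the only member of the 22 whose lines overlapped. ANXA4 was at 2032, 1648 and 1705 in SKOV-3, against 1567, 1632 and 1436 in Caov-3. Its log2 difference was -0.21 (SE 0.101, adjusted p = 0.101, limma), and it passed without the SKOV-3 or the Caov-3 IL-6 array (adjusted p = 0.0165 and 0.0148). It also passed with its probe sets averaged (-0.28, adjusted p = 0.0485) and on its second probe set alone (-0.34, adjusted p = 0.020).

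Probe sets of 1 member mostly agreed in the direction of the line difference. The second probe set of ANXA1 was at -2.80, of ANXA9 at 2.84, of ANXA7 at 0.35 and of ANXA4 at -0.34, and those of ANXA11 were at 0.47 and 0.76. For S100A13 and S100A6 the dimmer probe sets were at 0.22 and 0.11, smaller than the brighter ones. The dimmer probe set of S100A10 was at -1.15, a larger difference than the brighter one showed. S100A8 was read by a single working probe set, since its second stayed at 0.8 to 3.3 on all arrays, and the working one carries the suffix _s_at, used where a probe set can match several transcripts. ANXA8 is not among the members because its probe sets also name ANXA8L1.

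The 9 members left out of the fits were low in both lines. S100B, S100G and S100Z were at 1.17 to 11.2 on every array. S100A5 was at 4.67 to 37.6, S100A7 at 1.66 to 44.9, S100A1 at 10.1 to 76.8 (10.1 untreated and 69.1 with IL-6 in Caov-3) and ANXA13 at 4.35 to 52.3. S100A7A, a near copy of S100A7, came closest to the median, at 53.8 to 117.4, and S100A12 is described above.

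The response to 1 h of IL-6 was read within each line and over both. Among the 22 fitted members S100A8 had the largest fold, and it stood above untreated in both lines. In Caov-3 it was at 917 untreated and 2254 with IL-6, a log2 fold of 1.28. In SKOV-3 it was at 5.37 and 38.4, a log2 fold of 1.31 on the scale with the pseudocount. These intensities were below the array medians, so this fold is outside the 1.5-fold counts below. Of 11862 genes in the Caov-3 comparison 66 had a fold as high, S100A8 included. For S100A9 the log2 folds were 0.16 in Caov-3 and -0.31 in SKOV-3.

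S100A8 also had the lowest fold of siltuximab plus IL-6 against IL-6 among the fitted members. With the antibody before IL-6 it was at 793 in Caov-3 and 3.72 in SKOV-3, log2 folds of -1.49 and -1.42 against IL-6 alone. Against the untreated array these levels were at log2 folds of -0.20 and -0.11. Both folds of a line use its IL-6 array and are not independent. The 2 lines share no array, but the SKOV-3 folds rest on values below the medians and are outside the 1.5-fold counts. SOCS3, a direct STAT3 target, had IL-6 log2 folds of 0.46 (SKOV-3) and 0.50 (Caov-3), and siltuximab folds of -0.28 and -0.42. All of these were smaller than 1.5-fold.

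Over both lines limma called 0 of the 22 members for IL-6 and 0 of 12290 genes (0%), and 6 members and 1182 genes had an unadjusted p under 0.05. S100A8 had an IL-6 difference of 1.29 (SE 0.230, adjusted p = 0.3027, limma), with the adjusted p between 0.0604 and 0.837 over its alternatives. The size depends on the dim SKOV-3 values, being 0.78 when the pseudocount was the median and 1.96 when it was 1. For siltuximab plus IL-6 against IL-6 limma called 0 members and 0 genes (0%), with 2 members and 398 genes at an unadjusted p under 0.05. S100A8 was at -1.45 (SE 0.230, adjusted p = 0.983, limma), and at -0.88 and -2.28 with those pseudocounts. The fit has 2 residual degrees of freedom. In Caov-3 both S100A8 folds use the IL-6 array whose ACTB ratio was low, and in SKOV-3 they use values below the median. The part of that array in the result was not tested.

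**Figure D3:**
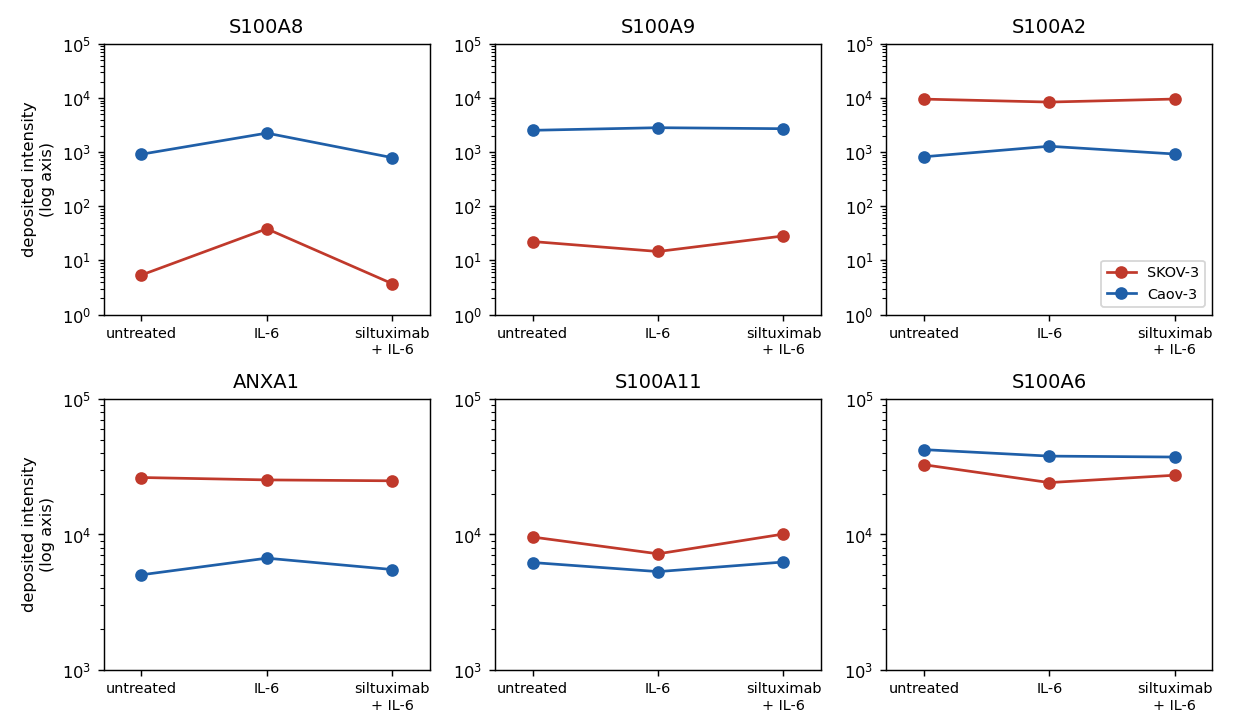
Deposited intensity (log axis) of 6 members on the 3 arrays of SKOV-3 (red) and Caov-3 (blue), 1 array a point. S100A8 was highest on the IL-6 array of both lines, at 38.4 and 2254, whereas S100A9 stayed at 2538 to 2837 in Caov-3.

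In Caov-3 2 of 20 members in the comparison were at least 1.5-fold apart with IL-6, both higher, and 11.2% of all genes were (5.04% higher). They were S100A8 and S100A2, the latter at 1288 against 823, a log2 fold of 0.64, with 925 after siltuximab. S100A2 stood the other way in SKOV-3, 8442 against 9578, for a log2 fold of -0.18. ANXA1 was at 6681 against 5033 in Caov-3, a log2 fold of 0.41, and at 25316 against 26373 in SKOV-3, or -0.06. In SKOV-3 0 of 18 members were at least 1.5-fold apart, against 7.62% of genes. On all 6 arrays the IL-6 difference of S100A2 was 0.23 (adjusted p = 0.7317, limma). With the SKOV-3 IL-6 array left out it was 0.60. That value rests on the Caov-3 IL-6 array alone, so the fit holds no measure of noise in IL-6 arrays.

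Most other members lay below their untreated level in SKOV-3 with IL-6. Of the 22 members 18 were lower and 4 higher, with a median log2 fold of -0.23, where all fitted genes had a median of -0.05. The share of all genes that were lower is not given here. S100A8, S100A9, S100A14 and ANXA9 are among the 22, though below the medians on both of these arrays. On the untreated SKOV-3 array 10 of the 22 members were at their highest of the line, as were 43.1% of all fitted genes. S100P was lowest, with 272 against 395, a log2 fold of -0.51. S100A13 was at -0.46, S100A6 at -0.44, S100A4 at -0.43 and S100A11 at -0.41. On the SKOV-3 IL-6 array 16 of the 22 members were at their lowest of the 3 arrays of the line, as were 37.9% of all fitted genes. In Caov-3 the members were at a median of 0.01, 12 higher and 10 lower, and all genes at 0.07.

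The members at an unadjusted p under 0.05 over both lines, beside S100A8, were S100A6 at -0.30, S100A11 at -0.32, S100A16 at -0.23, ANXA2 at -0.19 and ANXA3 at 0.31 (adjusted p from 0.4114 to 0.4995, limma). After quantile normalization S100A6 was at -0.06 and ANXA2 at -0.04, so that the size for these bright genes depended on the scaling. S100A11 was at -0.32 and S100A16 at -0.25 after the same step. ANXA3 was at 4610 against 3895 in SKOV-3 and at 5285 against 4076 in Caov-3, above untreated in both lines. With the mean of all probe sets S100A6 turned to 0.03.

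**Figure D4:**
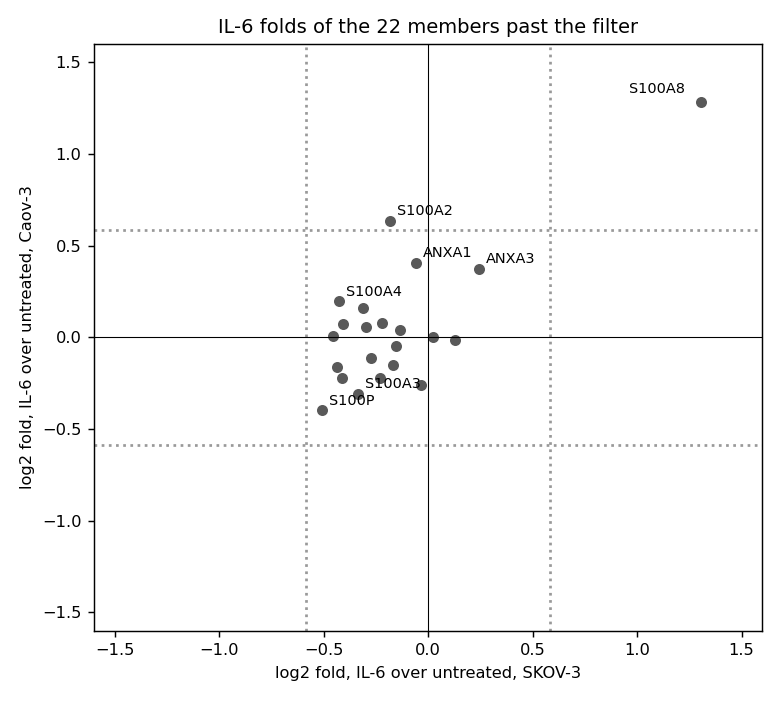
Log2 fold of IL-6 over untreated in SKOV-3 (x axis) and Caov-3 (y axis) for the 22 members past the filter, 1 array over 1 array on each axis, with dotted lines at 1.5-fold. S100A8 stands alone at 1.31 and 1.28, S100A2 at -0.18 and 0.64, and the other members lie within 1.5-fold in both lines. The SKOV-3 folds of S100A8, S100A9, S100A14 and ANXA9 rest on values below the array medians.

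Siltuximab before IL-6, set against IL-6 alone, gave few members at least 1.5-fold apart. In SKOV-3 there were 0 of 19 members, against 4.56% of genes, and in Caov-3 1 of 20, S100A8, against 8.14% (2.87% lower). S100A11 was at 10073 against 7194 in SKOV-3 and at 6256 against 5314 in Caov-3, log2 folds of 0.48 and 0.23, and its log2 folds against untreated were then 0.07 and 0.01. In limma S100A11 was at 0.36 (SE 0.0938, adjusted p = 0.983). S100A2 was at -0.47 in Caov-3 and 0.19 in SKOV-3, and S100A9 at -0.06 and 0.52, the latter from 14.6 to 28.3. On the Caov-3 IL-6 array 11 of the 22 members were at their highest of the line, as were 49.2% of all genes.

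More receptors and binding partners of these proteins were lower than higher in Caov-3. Of 27 partner genes measured 20 entered the fit and 16 were called, 4 higher and 12 lower in Caov-3, where 70.8% of all genes were called, 38.6% higher and 32.3% lower. Their median log2 difference was -0.58 beside 0.07 for all genes. PLAU, the urokinase whose product acts with the plasminogen bound by S100A10, was at 5983 to 6208 in SKOV-3 and 590 to 695 in Caov-3, a log2 difference of -3.19 (SE 0.0866). ALCAM, an adhesion molecule that binds S100 proteins, was at -2.16 (SE 0.0892). TLR4, a receptor of calprotectin, was at 102 to 122 in SKOV-3 and 12.4 to 33.1 in Caov-3, a log2 difference of -1.82 (SE 0.328). It entered the fit through SKOV-3 arrays alone, near their medians, so the filter itself favoured a difference. PPP5C, a phosphatase that S100 proteins can activate, was at -1.56, and limma called 0 partners for IL-6 and 0 for siltuximab, with 3 and 0 at an unadjusted p under 0.05.

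The keratinocyte genes between S100A11 and S100A9 on chromosome 1, the epidermal differentiation complex, were mostly low in both lines. From 42 symbols listed, 21 genes were measured with a probe set of their own, and 2 to 4 of these reached the median per array. The fit took in 4 (LCE1E, PGLYRP4, SPRR1A and SPRR4), and LCE1E, at 129 to 219, was above the median on all 6 arrays. Of these 0 were called between the lines in limma, the smallest adjusted p being 0.389. The summed intensity of the 21 genes was 936 to 1176 per array.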

How the data were processed

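The authors deposited linear intensities of probe sets, made with Affymetrix Expression Console and MAS5 per the submitters' processing notes. Their versions are not given in sources used here. Arrays had been scaled alike (2% trimmed mean of 500.06 to 500.07), and no detection calls were used here. Groups came from sample titles. Of 54675 probe sets 41091 carried 1 gene symbol in the array annotation, and the 1801 with several were left out. Values were taken to log2 after adding 17.06, the 20th percentile of named probe sets.

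With limma 3.58.1 (R 4.3.3) each gene was fitted over 6 arrays by line plus treatment, and the prior variance followed mean intensity. P-values were adjusted over all 12290 genes. The 3 arrays of a line are 3 treatments, not replicates, and an exact permutation test of 3 against 3 could not go below 0.1. Within a line, log2 folds are 1 array over 1 array with no test. Counts at 1.5-fold take in only genes whose higher array was at or above its median. Folds of dimmer members are given as values only. The fit was tested on simulated data. The number of arrays limits the precision.

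Named were all members in the fits, the 4 partners with the largest line difference and any called gene of the epidermal list. Members and lists were chosen with earlier results of these data known. Alternatives were 2 pseudocounts, 3 filters, 2 normalizations, 2 choices of probe set, each array left out, no treatment term and no trend. Promoters came from RefSeq (GRCh38.p14). Other steps used Python 3.11.15, numpy 2.4.6, pandas 2.3.3 and matplotlib 3.10.9.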

Additional observations from a re-analysis of the deposited data

Results flagged for a closer look

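S100A2 stood opposite ways with IL-6 in the 2 lines. Its log2 fold was 0.64 in Caov-3 (1288 against 823) and -0.18 in SKOV-3 (8442 against 9578). Each line had 1 array a treatment, and the difference between the lines was not tested. The Caov-3 IL-6 array, on which the fold of 0.64 rests, had an ACTB ratio of 0.494, and its part in the result was not tested.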

How the results depend on the processing

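The count of 20 members called between the lines ran from 16 to 21 over all alternatives (19 to 21 when 1 array was left out), the 16 being of 17 members fitted when probe sets with the suffix _x_at or _s_at were dropped and of 18 with the filter at the 75th percentile. The direction of ANXA3, which was not called, turned to -0.0047 without either IL-6 array and was 0.13 without either siltuximab array, and the IL-6 difference of S100A6 over both lines turned to 0.030 when its probe sets were averaged. The causes were not tested. For IL-6 over both lines the count was 0 under every alternative that kept both IL-6 arrays. With either left out, the IL-6 difference rests on a single IL-6 array, and no count is given. For siltuximab the count was 0 under every alternative run.

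Counts of members at least 1.5-fold apart moved most with the filter, which decides how many dim genes enter. With no filter, where all 31 members enter, IL-6 gave 4 in SKOV-3 and 5 in Caov-3, and siltuximab gave 4 and 2. With the filter on the mean over 6 arrays there were 1 for IL-6 and 1 for siltuximab in SKOV-3, with S100A8 entering. Averaging all probe sets gave 1 each for IL-6 and siltuximab in SKOV-3 and 2 for siltuximab in Caov-3. At the pseudocount of the median IL-6 gave 1 in Caov-3, and without _x_at and _s_at probe sets, which removes the working one of S100A8, IL-6 gave 1 and siltuximab 0 in Caov-3. No pairing of replicates was possible because each group had 1 array. The fit of line plus treatment already compares the lines within each treatment, and with line as the sole term 20 members were called. Dim members have no detection call here, so their folds depend on the pseudocount.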
